A study of Mus musculus with 19 samples.

Results

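The genes described here take up dietary fat and rebuild it into triglyceride. They were a list of 10 genes, namely Cd36, Fabp1, Fabp2, Mogat2, Dgat1, Dgat2, Gpat3, Aqp3, Aqp7 and Gpd1, matched by symbol to the Ensembl gene identifiers of the deposited tables, which hold 55487 genes. All 10 were found once and all 10 passed the filter on low counts, as did 17875 genes in all. RNA was sequenced from small intestinal crypts, the pits between the villi in which stem cells and their dividing progeny sit, in 19 C57BL/6 mice with 1 library for each mouse. There were 5 NT+/+ mice fed ad libitum (NT+/+ AL), 4 NT-/- mice fed ad libitum (NT-/- AL), 5 NT+/+ mice fasted for 48 hours with water (NT+/+ Fast) and 5 NT-/- mice fasted in the same way (NT-/- Fast). NT-/- mice lack neurotensin, a gut hormone released by dietary fat, in the whole body and from birth, so that a difference between genotypes is not tied to the crypt. Mice of both sexes were used at 10 to 16 weeks of age, and the fed controls were littermates matched for sex and age. Crypts came from the proximal part of the small intestine, released with EDTA. The paper's abstract describes its fed and fasted mice of both genotypes as Lgr5-EGFP mice. Its methods list mice with and without the Lgr5-EGFP-IRES-CreERT2 allele, and the labels do not say which sequenced mice carried it. The comparisons ask how fasting changes these genes in each genotype and whether the loss of neurotensin changes them in fed or fasted mice.

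In the lumen of the gut, dietary triglyceride is cut to fatty acids and monoacylglycerol. Enterocytes, the absorptive cells of the epithelium, take both up. Cd36 is a fatty acid translocase of the cell membrane, and Fabp1 and Fabp2 are the liver and intestinal forms of the fatty acid-binding proteins that carry fatty acids through the cytosol. Mogat2 adds a fatty acid to monoacylglycerol, which is the main route to diacylglycerol in enterocytes after a meal. Gpat3 starts the other route by adding a fatty acid to glycerol 3-phosphate. Dgat1 and Dgat2 carry out the last step from diacylglycerol to triglyceride. Aqp3 and Aqp7 are channels for water and glycerol, and Gpd1 makes glycerol 3-phosphate in the cytosol from an intermediate of glycolysis.

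Promoter sequences were matched in RefSeq (build GRCm38.p6) for 6 of the 10 genes, and the stretch before the start site is printed for the 4 of them that rose with fasting. These are the bases from 250 before the RefSeq start, shortened where GENCODE places an exon earlier. Capitals mark AGGTCA on either strand (TGACCT on the printed strand), the hexamer bound by nuclear receptors such as the peroxisome proliferator-activated receptors (PPARs), pairs of it, and TATAAA on the printed strand.
Fabp1 (chr6:71199629-71199826, plus strand): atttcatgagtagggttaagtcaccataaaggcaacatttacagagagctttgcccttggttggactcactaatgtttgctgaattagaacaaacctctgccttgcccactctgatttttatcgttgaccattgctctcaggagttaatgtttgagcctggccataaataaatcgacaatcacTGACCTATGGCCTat
Fabp2 (chr3:122894822-122895071, plus strand): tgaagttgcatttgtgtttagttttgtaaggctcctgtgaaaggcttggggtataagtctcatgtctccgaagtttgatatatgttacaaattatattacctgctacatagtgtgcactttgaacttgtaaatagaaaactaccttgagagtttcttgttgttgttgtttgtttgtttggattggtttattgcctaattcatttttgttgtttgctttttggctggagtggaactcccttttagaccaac
Cd36 (chr5:17835897-17836146, minus strand): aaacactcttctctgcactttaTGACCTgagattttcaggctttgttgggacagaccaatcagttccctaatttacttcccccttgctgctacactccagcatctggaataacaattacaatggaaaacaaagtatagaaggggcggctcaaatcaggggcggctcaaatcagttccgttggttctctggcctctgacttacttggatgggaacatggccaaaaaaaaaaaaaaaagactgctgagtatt
Aqp3 (chr4:41098184-41098433, minus strand): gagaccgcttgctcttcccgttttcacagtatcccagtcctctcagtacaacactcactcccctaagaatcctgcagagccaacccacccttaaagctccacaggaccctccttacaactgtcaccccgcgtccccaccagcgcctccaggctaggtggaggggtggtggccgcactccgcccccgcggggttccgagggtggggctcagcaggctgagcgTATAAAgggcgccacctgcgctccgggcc
The Fabp1 stretch held 2 such units side by side, 1 of them with a changed base (TGACCTATGGCCT), from 67 to 55 bases before the start, which match AGGNCANAGGNCA on the opposite strand. That loose repeat was present in 0.381% of the 32851 promoters of 300 bases, and its strict form AGGTCANAGGTCA in 0.0396%. Fabp1 had another TGACCT from 9 to 4 bases before the start, and Cd36 had 1 from 228 to 223 bases before it. The hexamer alone was found in 16.3% of all promoters, and a hexamer within a repeat was counted as a hexamer too. TATAAA lay 30 to 25 bases before the Fabp1 start, just past the printed stretch, and 29 to 24 bases before the Aqp3 start, and was found in 8.32% of all promoters. Of the others, the 2 Aqp7 entries held hexamers, and Fabp2 and Gpat3 held none of these letters. The Cd36 entry is 1 of several starts of that gene and lies inside the GENCODE gene, in no exon.

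The total count per mouse ranged from 9059418 to 35068669 (median, 18541770). Aqp3, the rarest member in fed mice, had between 9 and 278 counts per mouse. Nts, which encodes neurotensin, was at 6.75 to 8.59 CPM, the normalised read count used below, in NT+/+ AL mice and 4.98 to 5.71 CPM in NT+/+ Fast mice, against 0.144 to 0.746 CPM in NT-/- AL mice and 0.214 to 0.793 CPM in NT-/- Fast mice. The labels of NT+/+ Fast replicate 5 disagree, with NT+/+ in the title and NT-/- in the genotype field. Its Nts level was 5.43 CPM, within the range of the other NT+/+ Fast mice, and it was kept under its title. Nothing in the labels says what a shared replicate number stands for. Epithelial markers were at similar summed levels in all groups (4665 to 6166 CPM), with 0 of 5 changed by fasting, and Paneth cell markers summed to 14848 to 36919.7 CPM.

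Expressed per length in the deposited TPM, the fatty acid-binding proteins had the highest group means. In NT+/+ AL mice the mean level was 913 ± 337 TPM for Fabp2 and 544 ± 204 TPM for Fabp1 (SD, n = 5). Dgat1 followed at 239 ± 42.7 TPM. Its range (180.1 to 277 TPM) lay below that of Fabp2 (397 to 1275 TPM) but overlapped that of Fabp1 (228 to 784 TPM), which in turn overlapped that of Fabp2. Next came Gpd1 at 77.6 ± 15.8 TPM and Mogat2 at 66.4 ± 16.4 TPM. The ranges of Gpd1 (50.9 to 90.7 TPM) and Mogat2 (39.6 to 82.8 TPM) overlapped, so their order was not resolved. Dgat2 at 25.6 ± 8.14 TPM and Gpat3 at 23.2 ± 5.18 TPM could not be ordered either. Cd36 was at 7.08 ± 3.36 TPM, Aqp7 at 3.83 ± 1.06 TPM and Aqp3 at 1.86 ± 1.33 TPM. In these fed crypts Dgat1 thus stood above Dgat2 in every mouse, the lowest Dgat1 value being 180.1 TPM and the highest Dgat2 value 33.8 TPM.

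Fasting raised 8 of the 10 genes in NT+/+ mice and the same 8 in NT-/- mice (edgeR's quasi-likelihood test, Benjamini-Hochberg adjusted p under 0.05), and lowered none. The exceptions in both genotypes were Gpat3 and Aqp7. Among all genes tested, fasting changed 21.6% in NT+/+ mice (11.2% higher, 10.4% lower) and 25.2% in NT-/- mice (12.5% higher, 12.6% lower). The median log2 fold change of the 10 genes was 1.03 in NT+/+ mice and 1.31 in NT-/- mice, against -0.009 and -0.022 for all genes. The 2 comparisons use different mice.

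**Figure D1:**
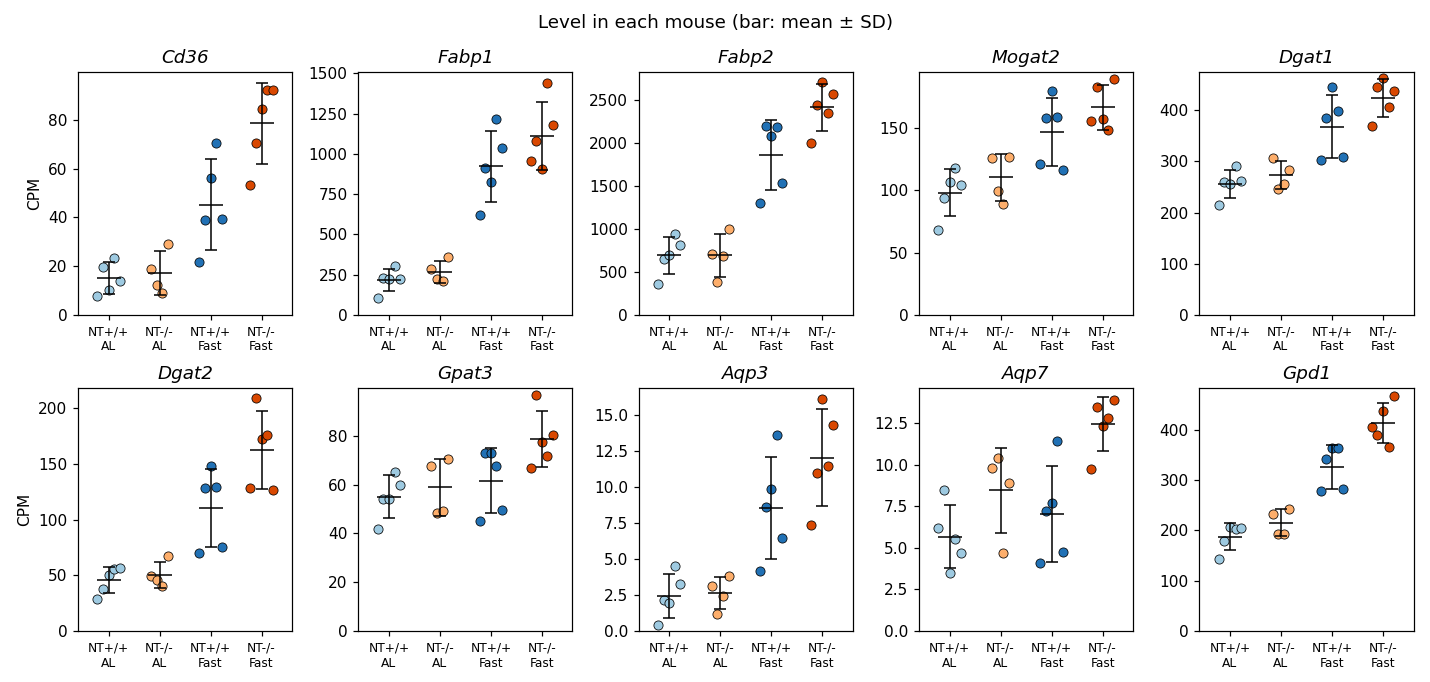
Level of each gene in CPM (y axis, from 0) in each of the 19 mice (points) by genotype and diet (x axis), with the group mean and SD as bars. In NT-/- mice the fasted values of 8 genes lie wholly above the fed ones, as for Fabp1 (907 to 1443 CPM against 207 to 357 CPM), whereas those of Gpat3 and Aqp7 overlap.

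Cd36, the membrane translocase, was at 7.63, 19.8, 10, 23.4 and 14 CPM in the 5 NT+/+ AL mice and at 21.6, 38.9, 56, 70.4 and 39.4 CPM in the 5 NT+/+ Fast mice. Only the lowest fasted mouse, replicate 1, fell below the highest fed mouse. The fold change was 3.01 (95% confidence interval, 1.85 to 4.91; log2 1.59, SE 0.34; edgeR adjusted p = 0.00219). NT-/- AL mice had 18.6, 12.3, 8.86 and 29.1 CPM, and NT-/- Fast mice had 53.3, 70.7, 84.6, 92.5 and 92.2 CPM. These groups did not overlap, and the fold change was 4.57 (2.69 to 7.77; log2 2.19, SE 0.37; edgeR adjusted p = 0.000247).

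Fabp1 had the largest fold change in NT+/+ mice, but its interval overlapped those of Cd36, Fabp2, Dgat2 and Aqp3. In NT-/- mice Fabp1 lay below Cd36 and Aqp3 in fold change, again with overlapping intervals. Its level was 107, 228, 221, 303 and 225 CPM in NT+/+ AL mice and 623, 915, 824, 1214 and 1038 CPM in NT+/+ Fast mice, with no overlap. The fold change was 4.26 (3.05 to 5.96; edgeR adjusted p = 3.8e-06). In NT-/- mice Fabp1 rose from 284, 222, 207 and 357 CPM to 953, 1078, 907, 1443 and 1178 CPM, which is a fold change of 4.15 (2.89 to 5.97; edgeR adjusted p = 9.4e-06). Fabp2, its intestinal counterpart, was at 354, 655, 698, 939 and 813 CPM in NT+/+ AL mice and at 1305, 2197, 2078, 2184 and 1540.2 CPM in NT+/+ Fast mice. It rose 2.69-fold (1.9 to 3.8; edgeR adjusted p = 0.000298), again without overlap. Its NT-/- AL values of 709, 386, 681 and 1002 CPM became 1997, 2446, 2712, 2351 and 2572 CPM in NT-/- Fast mice, a rise of 3.48-fold (2.38 to 5.07; edgeR adjusted p = 6.02e-05). In both genotypes every fasted mouse was above every fed mouse for both binding proteins.

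Mogat2, the enzyme of the monoacylglycerol route, rose by a smaller factor. It ranged from 67.9 to 118 CPM in NT+/+ AL mice and from 116 to 179.6 CPM in NT+/+ Fast mice, and the fold change was 1.49 (1.21 to 1.84; edgeR adjusted p = 0.00708). The groups overlapped by 1 fasted mouse. The range for NT-/- mice moved from 89.1 to 127 CPM when fed to 148 to 189 CPM when fasted, without overlap, and the fold change was 1.51 (1.2 to 1.88; edgeR adjusted p = 0.00802).

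The enzymes of the final acylation both rose. Dgat2 was at 29.2, 37.9, 50.1, 55.8 and 56.5 CPM in NT+/+ AL mice and at 70, 128, 148, 129.5 and 75.6 CPM in NT+/+ Fast mice. No fasted mouse overlapped a fed one, and the fold change was 2.4 (1.74 to 3.31; edgeR adjusted p = 0.000463). NT-/- AL mice had 49, 45.9, 40.3 and 67.3 CPM of Dgat2, and NT-/- Fast mice had 128, 209, 172, 176 and 127 CPM, a rise of 3.21-fold (2.26 to 4.55; edgeR adjusted p = 5.58e-05). Dgat1 went from 215 to 292 CPM in NT+/+ AL mice to 303 to 445 CPM in NT+/+ Fast mice, a fold change of 1.44 (1.23 to 1.68; edgeR adjusted p = 0.00186). Among NT-/- mice it went from 246 to 307 CPM to 369.8 to 463 CPM, a fold change of 1.55 (1.31 to 1.84; edgeR adjusted p = 0.000525). The fold change of Dgat2 was above that of Dgat1 with no overlap of their intervals in either genotype, a difference that was not itself tested, although per length Dgat1 stayed the more abundant, with at least 240.1 TPM in NT+/+ Fast mice against at most 79.8 TPM for Dgat2.

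Gpat3, which opens the glycerol 3-phosphate route, did not pass the test. NT+/+ AL mice had 42, 54.3, 54.1, 65.2 and 60 CPM and NT+/+ Fast mice 45, 73.1, 73, 67.5 and 49.6 CPM, with a fold change of 1.12 (0.897 to 1.39; edgeR adjusted p = 0.493). NT-/- AL mice had 67.6, 48.5, 49.3 and 70.3 CPM and NT-/- Fast mice 66.9, 96.8, 77.3, 71.8 and 80.3 CPM. The fold change there was 1.33 (1.05 to 1.68; edgeR adjusted p = 0.0673), and it passed the threshold with DESeq2 (log2 0.43; adjusted p = 0.0407), in a fit of the 2 NT-/- groups alone (edgeR adjusted p = 0.0362), or without NT-/- AL replicate 4 (log2 0.51; edgeR adjusted p = 0.0441), NT+/+ Fast replicate 1 (log2 0.41; 0.0471) or NT-/- Fast replicate 1 (log2 0.47; 0.0499). In each of these its log2 fold change stayed at or below 0.51.

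The glycerol channels differed from each other. Aqp3 was at 0.432, 2.14, 1.98, 4.52 and 3.24 CPM in NT+/+ AL mice and at 4.17, 8.6, 9.88, 13.6 and 6.5 CPM in NT+/+ Fast mice, which overlapped by 1 mouse. It rose 3.47-fold (1.91 to 6.29; edgeR adjusted p = 0.00399), with counts of 9 to 89 behind the fed values. Its NT-/- AL values were 3.13, 1.19, 2.41 and 3.84 CPM and its NT-/- Fast values 7.37, 11, 16.1, 11.5 and 14.3 CPM, a rise of 4.54-fold (2.39 to 8.62; edgeR adjusted p = 0.00129) without overlap. Aqp7 was at 6.19, 8.5, 3.5, 5.53 and 4.69 CPM in NT+/+ AL mice and at 4.11, 7.23, 7.72, 11.4 and 4.76 CPM in NT+/+ Fast mice. The fold change of Aqp7 was 1.23 (0.84 to 1.81; edgeR adjusted p = 0.457), and the groups overlapped almost fully. In NT-/- mice Aqp7 was at 9.79, 10.4, 4.72 and 8.9 CPM when fed and at 9.77, 13.5, 12.3, 12.8 and 13.9 CPM when fasted (fold change, 1.47; 0.986 to 2.19; edgeR adjusted p = 0.152). The difference between the channels was not itself tested, and their intervals for NT+/+ mice (1.91 to 6.29 and 0.84 to 1.81) did not overlap.

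Gpd1, which supplies glycerol 3-phosphate, was at 143, 179, 206, 202 and 204 CPM in NT+/+ AL mice and at 277, 342, 363, 363 and 281 CPM in NT+/+ Fast mice. All fasted mice were above all fed mice, and the fold change was 1.74 (1.48 to 2.05; edgeR adjusted p = 5.22e-05). NT-/- AL mice had 233, 192, 192 and 243 CPM and NT-/- Fast mice had 405, 389, 436, 365 and 466 CPM, with a fold change of 1.92 (1.61 to 2.29; edgeR adjusted p = 1.79e-05). In all, 5 of the 10 genes (Fabp1, Fabp2, Dgat1, Dgat2 and Gpd1) had no overlap between fed and fasted NT+/+ mice, a pattern shown by 7.63% of all genes tested, and 8 had none in NT-/- mice, against 10.5% of all genes.

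**Figure D2:**
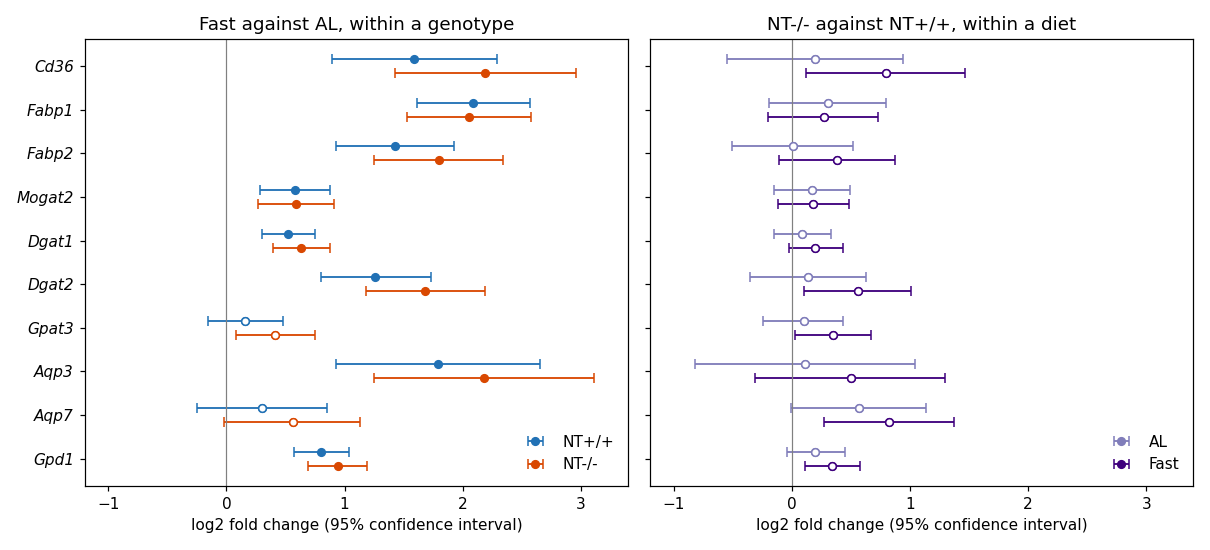
Log2 fold change (x axis) of the 10 genes (y axis) with its 95% confidence interval, for Fast against AL in each genotype (left) and for NT-/- against NT+/+ in each diet (right); filled points had an edgeR adjusted p under 0.05 and open points did not. On the left, 8 genes are filled in both genotypes, and on the right none is filled, although all 10 points lie above 0 in both diets.

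Within a group, the same mice tended to be at the end of the range for several of the genes. NT+/+ AL replicate 1 was the lowest of its group in 9 of the 10 genes, and so was NT+/+ Fast replicate 1. NT-/- Fast replicate 1 was the lowest in 6. At the other end, NT+/+ AL replicate 4 was the highest in 7 genes and NT-/- AL replicate 4 in 8. The same mice stood at the ends of their groups in markers of absorptive enterocytes. Summed over 10 such markers (Alpi, Sis, Lct, Anpep, Mep1a, Treh, Krt20, Ada, Nt5e and Enpep), the level was 3889 CPM in NT+/+ AL replicate 1 and 7496 CPM in replicate 4, 6809 CPM in NT+/+ Fast replicate 1, and 7818 CPM in NT-/- AL replicate 4.

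Enterocyte markers also moved with fasting. Of the 10, 7 were higher in NT+/+ Fast than in NT+/+ AL mice and 9 were higher in NT-/- Fast than in NT-/- AL mice by the same test. Their sum was 3889 to 7496 CPM in NT+/+ AL, 6809 to 11253 CPM in NT+/+ Fast, 5466 to 7818 CPM in NT-/- AL and 10975 to 14388 CPM in NT-/- Fast mice, and the group means rose by a factor of 1.56 and 1.91. Of 5 markers of dividing cells, 4 were lower with fasting in NT+/+ mice and 5 in NT-/- mice. Goblet cell markers were lower in 1 of 5 and 3 of 5. These were Clca1 (log2 -1.51 and -2.22) and, in NT-/- mice only, Muc2 (-0.83) and Spink4 (-1.31). Tff3 (0.13 and 0.03) and Fcgbp (0.17 and 0.16) were not called. Crypt base stem cell markers were lower in 1 of 5 and 2 of 5, namely Olfm4 (log2 -0.63 and -0.92) and, in NT-/- mice only, Smoc2 (-0.49). Lgr5 (0.29 and -0.02), Ascl2 (0.63 and 0.12) and Slc12a2 (-0.19 and -0.23) were not called, so neither list fell as a set. Of the distal small intestine markers, Slc10a2, at 0.72 to 1.32 CPM in NT+/+ AL mice, was higher with fasting in NT+/+ mice (log2 1.99, edgeR adjusted p = 0.0069). It was not called in NT-/- mice (log2 1.26, edgeR adjusted p = 0.0891). The other distal marker, Fabp6, lay below 0 (log2 -0.64 and -0.68) and was not called. Of the proximal markers, Onecut2 was higher in NT-/- mice (log2 0.7, edgeR adjusted p = 0.0347). It was not called in NT+/+ mice (log2 0.23, edgeR adjusted p = 0.496). Gata4 was not called (log2 0.13 and 0.05), and Pdx1 was too low to test. The lists thus show no shared regional shift. The part of these markers in the levels of the 10 genes was not tested. In these bulk samples, more cells of a type and more RNA per cell cannot be told apart. Markers of adipocytes, which also use several of these genes, were near 0 (Adipoq, Plin1, Lep and Retn at most 0.159 CPM), except Cidec at 6.04 to 32.6 CPM.

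Per 1000 CPM of the summed enterocyte markers, a ratio chosen after the values were seen and given without a test, the 10 genes separated. How many of all genes separate on this ratio was not counted. Because the marker sum rose with fasting (1.56 and 1.91), a gene with unchanged CPM comes out lower on the ratio in fasted mice. The sum rests mostly on Sis and Anpep, with means of 2165 and 1953 CPM in NT+/+ AL mice. Lct came next at 665 CPM. With fasting in NT+/+ mice, Anpep rose 1.85-fold, and Sis (fold change, 1.28) was not called. Cd36, Fabp1, Fabp2, Dgat2 and Aqp3 stayed higher in fasted than in fed mice in both genotypes, with no overlap. For Fabp1 the ratio was 27.5 to 40.4 in NT+/+ AL and 73.2 to 143 in NT+/+ Fast mice, and for Dgat2 it was 5.79 to 8.43 and 10.3 to 13.2. Dgat2 had a small margin in NT-/- mice, with 6.4 to 8.61 in fed and 9.22 to 15.6 in fasted mice. The margin in NT+/+ mice was small for Cd36, with 1.69 to 3.12 in fed and 3.16 to 6.32 in fasted mice, and for Aqp3, with 0.111 to 0.603 and 0.613 to 1.22. Mogat2 (14.3 to 18 and 14 to 17.8), Dgat1 (38.4 to 55.3 and 34.3 to 44.5) and Gpd1 (26.9 to 36.7 and 30.4 to 40.6) overlapped between fed and fasted NT+/+ mice, as did Aqp7. Gpat3 was lower per enterocyte marker in every fasted mouse (6.07 to 6.81 against 8.28 to 10.8 in NT+/+, and 5.52 to 6.73 against 8.07 to 9.02 in NT-/- mice). Fasted NT-/- mice were also lower without overlap for Mogat2, at 11.2 to 14.3 against 16.3 to 16.6, and for Dgat1, at 31 to 36 against 36.3 to 46.9. What part the enterocyte markers' rise has in the levels of the 10 genes was not tested.

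**Figure D3:**
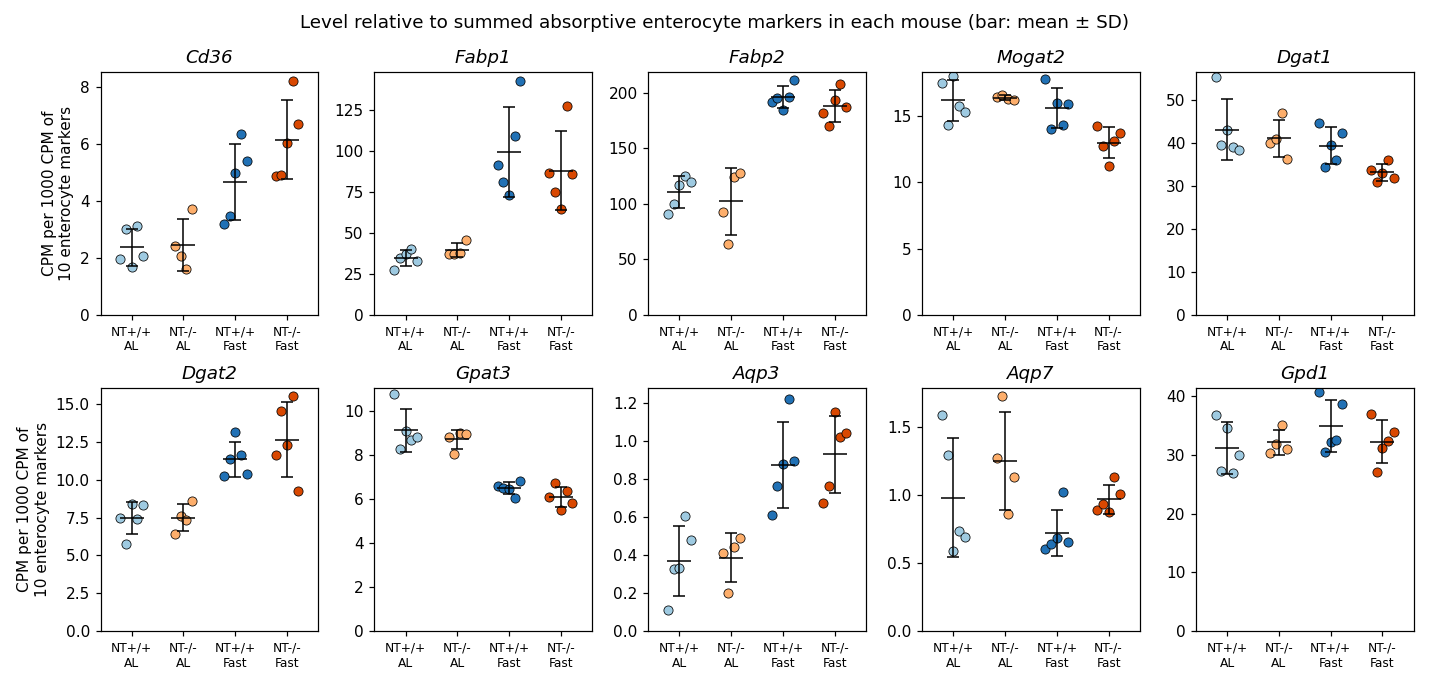
CPM of each gene divided by the summed CPM of 10 absorptive enterocyte markers, times 1000 (y axis, from 0), in each mouse (points) by group (x axis), with mean and SD as bars. Fabp1, Fabp2, Dgat2, Aqp3 and Cd36 stay apart between fed and fasted mice, Mogat2, Dgat1 and Gpd1 overlap in NT+/+ mice, and Gpat3 lies lower in fasted mice (6.07 to 6.81 against 8.28 to 10.8 in NT+/+).

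Other genes of fat uptake and glycerolipid synthesis were examined as a list of 45 chosen for their role. Of these, 41 were tested (Fabp3, Fabp4, Aqp9 and Mogat1 were too low). The list was set with earlier results of these data known, so its counts beside all genes are a description only. Fasting raised 20 and lowered 3 in NT+/+ mice and raised 23 and lowered 3 in NT-/- mice, with a median log2 fold change of 0.47 and 0.45. Over all genes tested, 11.2% were higher and 10.4% lower in NT+/+ mice, and 12.5% and 12.6% in NT-/- mice. With 3 of 41 genes lower, no difference from all genes in the share that fell is read. The 3 largest rises in NT+/+ mice were those of Mgll, a monoacylglycerol lipase (log2 2.34, SE 0.22; edgeR adjusted p = 4.07e-07), Ces1d, a carboxylesterase that breaks down triglyceride (2.02, SE 0.41; 0.00171), and Ces2c, another carboxylesterase (1.42, SE 0.14; 9.69e-07). Those in NT-/- mice were Ces1d (2.35, SE 0.45; edgeR adjusted p = 0.000753), Mgll (2.24, SE 0.23; 1.86e-06) and Slc27a2, a fatty acid transport protein that also activates fatty acids (1.67, SE 0.12; 9.9e-09). The 3 genes that fell were the same in both genotypes, and they are named by the rule for this list. Lpin1, a phosphatidate phosphatase, fell by 1.14 in NT+/+ mice (SE 0.24; edgeR adjusted p = 0.00193) and by 1.25 in NT-/- mice (SE 0.25; 0.00123) on the log2 scale. Fabp5, the epidermal fatty acid-binding protein, fell by 0.5 and 0.64, unlike Fabp1 and Fabp2, and Agpat5, an acyltransferase of the glycerol 3-phosphate route, fell by 0.34 and 0.49.

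The counts by role are small and stand beside 11.2% of all genes higher and 10.4% lower in NT+/+ mice, and 12.5% and 12.6% in NT-/- mice. By role, all 7 genes of triglyceride packaging and storage (Mttp, Apob, Sar1b, Plin2, Plin3, Fitm2 and Cideb) rose in both genotypes. Of 11 genes of uptake and activation, 5 rose in NT+/+ mice and 6 in NT-/- mice, and of 6 genes of triglyceride breakdown, 4 and 5 rose. Of the 3 tested genes of intracellular binding, 0 rose and 1 fell (Fabp5) in each genotype. The glycerol 3-phosphate route, which Gpat3 belongs to, was mixed, with 3 of 11 genes higher and 2 lower in NT+/+ mice and 4 higher and 2 lower in NT-/- mice. Among the genes of glycerol 3-phosphate supply, 1 of 3 rose, namely glycerol kinase (Gk), with a log2 fold change of 0.89 in NT+/+ mice and 1.01 in NT-/- mice.

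**Figure D4:**
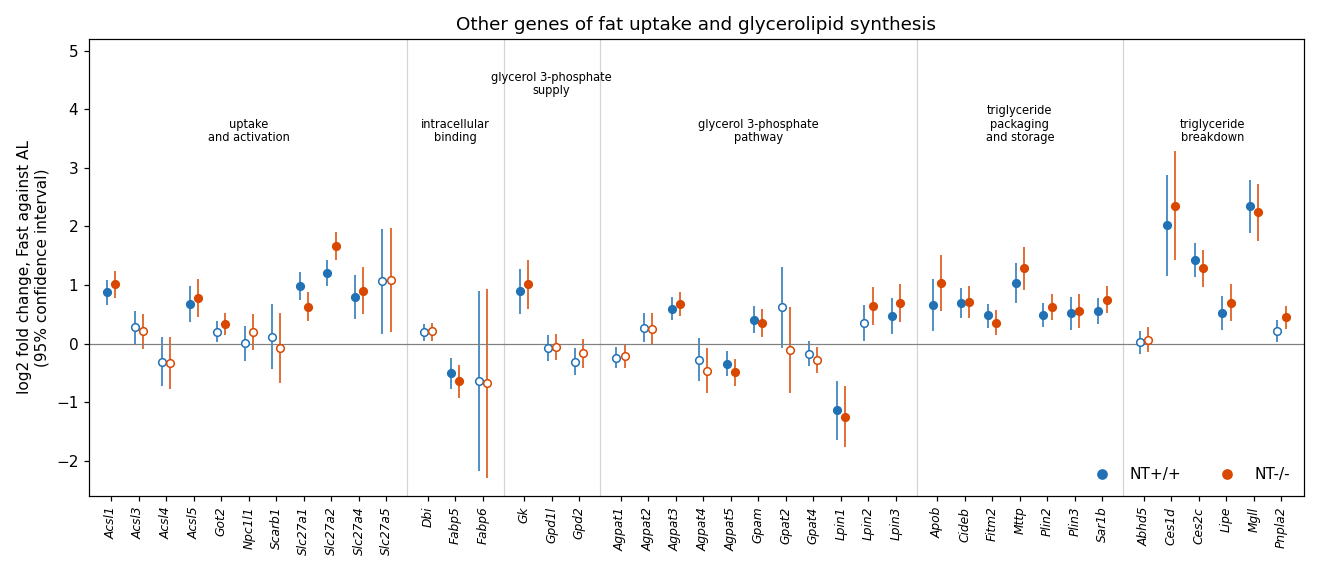
Log2 fold change with fasting (y axis, with 95% confidence interval) of the 41 tested genes of the wider list (x axis, grouped by role) in NT+/+ and NT-/- mice; filled points had an edgeR adjusted p under 0.05. All 7 packaging and storage genes are filled above 0, and Lpin1 lies lowest among the filled points (-1.14 and -1.25).

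Loss of neurotensin changed none of the 10 genes at the threshold in either diet. In fed mice 0 of 10 were called and 0 had an unadjusted edgeR p under 0.05, against 1.67% of all genes at that unadjusted level and 0.00559% (1 gene) called. The median log2 fold change of NT-/- against NT+/+ was 0.16. The widest interval in fed mice was that of Aqp3 (fold change, 1.08; 0.566 to 2.05) and the narrowest that of Dgat1 (1.07; 0.903 to 1.26). The fed values of Fabp2 were nearly equal, with 692 ± 219 CPM in NT+/+ AL (SD, n = 5) and 695 ± 252 CPM in NT-/- AL mice (SD, n = 4).

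In fasted mice 0 of 10 were called by edgeR or by DESeq2, while 5 had an unadjusted edgeR p under 0.05 (Cd36, Dgat2, Gpat3, Aqp7 and Gpd1), a level reached by 9.14% of all genes. Only Nts was called among all genes (0.00559%). Every one of the 10 had a higher mean in NT-/- Fast than in NT+/+ Fast mice, with a median log2 fold change of 0.36, where 47.3% of all genes lay above 0. Aqp7 was 1.77-fold higher (1.21 to 2.58; edgeR adjusted p = 0.344), with 4.11 to 11.4 CPM in NT+/+ Fast and 9.77 to 13.9 CPM in NT-/- Fast mice. Cd36 was 1.74-fold higher (1.09 to 2.77; edgeR adjusted p = 0.452). Gpd1 was the one gene whose fasted groups did not overlap (277 to 363 CPM and 365 to 466 CPM), as in 0.94% of all genes, and its fold change was 1.27 (1.08 to 1.49; edgeR adjusted p = 0.344). For Dgat2 the fold change was 1.47 (1.07 to 2.02; edgeR adjusted p = 0.418) and for Gpat3 it was 1.27 (1.02 to 1.59; 0.482). The intervals of Fabp1 (0.873 to 1.66), Fabp2 (0.925 to 1.82), Mogat2 (0.923 to 1.4), Dgat1 (0.985 to 1.35) and Aqp3 (0.808 to 2.46) included 1. The enterocyte markers had a median log2 fold change of 0.45 in this comparison, 10 of 10 above 0 with 0 called, and their part in these values was not tested.

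The response to fasting was not shown to differ between genotypes for any of the 10 genes. The interaction term, which is the log2 fold change with fasting in NT-/- mice less that in NT+/+ mice, was called in 0 of 10 genes and in 0% of all genes by edgeR, and its unadjusted p was under 0.05 in 0 of 10 against 2.71% of all genes. The largest value was that of Cd36, at 0.6 (95% confidence interval, -0.41 to 1.61), and that of Fabp1 was -0.04 (-0.71 to 0.64). Dgat1 had the narrowest interval (-0.22 to 0.44) and Aqp3 the widest (-0.84 to 1.62). These comparisons share mice with the others, so each gene's values are given side by side and no more is read from their likeness.

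Across the 4 groups, every one of the 10 genes had its lowest mean CPM in NT+/+ AL and its highest in NT-/- Fast mice. In deposited TPM this held for 9, the exception being Fabp2, at 913 ± 337 TPM in NT+/+ AL and 892 ± 377 TPM in NT-/- AL mice, which did not differ beyond their spread. The share of all genes with this order was not counted. All the enterocyte markers except Krt20 and Nt5e had the same order in CPM, so it was not particular to these 10 genes.

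The genes most like each of the 8 that rose were found as those with the smallest root mean square difference in log2 CPM over the 19 mice, after centring each gene on its mean. Fabp1 and Fabp2 shared the nearest gene, Creb3l3, a transcription factor of liver and intestine, at 0.256 and 0.195, and their second were Fbp1 at 0.291 and Cyp4v3 at 0.224. The median over all genes was 1.176 for Fabp1 and 0.983 for Fabp2. Dgat2 was nearest to Cidec, a lipid droplet protein, at 0.209 and to Cdr2 at 0.21. Mogat2 was nearest to Cideb at 0.105, and then Cndp2 at 0.111. Dgat1 lay closest to Myo1a and Myo7b, myosins of the enterocyte brush border, at 0.084 and 0.087. Cd36 lay closest to Rdh9 at 0.348 and Ephx2 at 0.359, Aqp3 to Slc13a2 at 0.311 and Rdh7 at 0.342, and Gpd1 to Tm4sf5 and Marc2, both at 0.086. For these 6 members the median over all genes was 0.901 (Dgat2), 0.503 (Mogat2), 0.466 (Dgat1), 1.21 (Cd36), 1.322 (Aqp3) and 0.591 (Gpd1). A gene that varies less has smaller distances to all genes, so distances are not compared between members. These distances describe the pattern over mice and were not tested.

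The 10 genes lie on 6 chromosomes of GRCm38. Mogat2 (7, 99219084 to 99238619, minus strand) and Dgat2 (7, 99153658 to 99182719, minus strand) are neighbours, as are Aqp7 (4, 41033074 to 41048139, minus strand) and Aqp3 (4, 41092722 to 41098183, minus strand). With fasting in NT+/+ mice, the fold change was 2.4 (1.74 to 3.31) for Dgat2 and 1.49 (1.21 to 1.84) for Mogat2, with overlapping intervals. It was 3.47 (1.91 to 6.29) for Aqp3 and 1.23 (0.84 to 1.81) for Aqp7, without overlap. Neither difference was itself tested. Cd36 (5, 17781690 to 17888801, minus strand) and Gpat3 (5, 100845713 to 100899102, plus strand) share a chromosome without being close, as do Dgat1 (15, 76502015 to 76511953, minus strand) and Gpd1 (15, 99717515 to 99725005, plus strand). Fabp1 is at 71199827 to 71205023 on the plus strand of chromosome 6 and Fabp2 at 122895072 to 122899506 on the plus strand of chromosome 3. Annotated genes on the opposite strand overlap Fabp2, Mogat2, Gpat3 and Gpd1, and the counting is not stated to use strand, so reads of such partners cannot be told apart. Gm42987, with at most 66 counts in a mouse, overlaps Gpat3 on the same strand, where strand would not tell reads apart. The overlapping genes themselves had at most 231 counts in a mouse (4930458D05Rik, within Gpat3), and those within Fabp2 and Gpd1 at most 21.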

How the data were processed

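Crypt RNA of 19 mice was depleted of ribosomal RNA and sequenced as single-end reads. The authors trimmed reads with Trimmomatic 0.39 and mapped them to Ensembl GRCm38 transcripts with RSEM, whose version and strand setting are not given in the sources used here. The deposited tables hold expected counts (not normalized, with shared reads divided by a model; 13.1% of values were not whole), TPM (scaled by length and depth by the authors) and RSEM's effective length, which was not used for tests.

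Groups were taken from titles. Expected counts were rounded, scaled by TMM, filtered by filterByExpr and fitted with 1 term for each of the 4 groups (edgeR 4.0.16, R 4.3.3; 17875 genes, 15 residual degrees of freedom, biological coefficient of variation 18.9%), and the quasi-likelihood test was adjusted over all genes (threshold 0.05). The SE is the absolute log2 fold change over the square root of F. CPM uses TMM library sizes. The script was tested on simulated counts. Intervals are 95% confidence intervals. P-values judge a group difference against the spread between mice within groups, with the mice treated as independent.

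The members and lists were chosen with earlier results of these data known. All 10 members are named. From the wider list, the text names the called genes at either end of each comparison, 3 by highest and 3 by lowest fold change, and for each called member the 2 genes nearest in pattern. The genes outside this rule (Gk, and those named to say what a list holds) were named after their values were seen, as was the ratio to enterocyte markers. Alternatives were upper quartile scaling, a filter of 10 counts in all mice or none, DESeq2 1.42.0 size factors or its Wald test, replicate blocks, sex as a covariate, the other grouping of the mouse with disagreeing labels, fits of only the groups compared, and each mouse left out.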

Additional observations from a re-analysis of the deposited data

How the results depend on the processing

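The 8 members that rose with fasting in NT+/+ mice were called in each setting tried, as were the 8 in NT-/- mice, except that Aqp3, with 9 counts in 1 mouse, was not tested under a filter of 10 counts in every mouse, which left 7. Gpat3 was called in NT-/- mice in 5 settings, with each mouse left out giving 8 or 9 called members. Calls in the wider list ranged from 21 to 29 with fasting in NT+/+ mice and from 24 to 29 in NT-/- mice over the settings other than leaving out a mouse, and from 20 to 25 and 24 to 27 with each mouse left out. For genotype and interaction, no setting called a member or a gene of the wider list. Over all genes, DESeq2 called 101 for genotype in fasted mice and 3 in fed mice, against 1 and 1 with edgeR, and the cause was not tested.

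Some uncalled differences near 0 changed sign. For genotype in fed mice, leaving out a mouse gave log2 values of -0.17 to 0.41 for Cd36, -0.22 to 0.2 for Fabp2, -0.02 to 0.24 for Dgat2 and -0.16 to 0.45 for Aqp3, each below 0 without NT-/- AL replicate 4, and Fabp2 was at 0 with a filter of 10 counts in every mouse and at -0.01 with upper quartile scaling. For the interaction, leaving out a mouse gave -0.19 to 0.14 for Fabp1 and -0.08 to 0.12 for Mogat2. Mogat2 was at 0 with no filter on low counts, -0.03 with sex as a covariate, and -0.14 with the mouse of disagreeing labels grouped as NT-/- Fast, a grouping that put Dgat1 at -0.01 and Aqp7 at -0.02.

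Same-numbered mice of different groups had correlated deviations from their group means (mean r, 0.184 over 27 pairs by the titles and 0.227 by the file names), but not every pair was over 0.1 (19 and 24 of 27 were), and no source says what the numbers mark. With either number as a replicate block, 8 members were called with fasting in each genotype and 0 for genotype or interaction, and the calls in the wider list were 26 and 29 in NT+/+ mice and 29 and 28 in NT-/- mice. The block by the file names put the interaction of Mogat2 at -0.03. By the titles 13 of 19 mice, and by the file names 17, correlated best with a mouse of their own number.

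Aqp3 had the fewest counts in fed mice, and its fold change for genotype in those mice had an interval of 0.566 to 2.05.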
